A study of Mus musculus with 6 samples.

Results

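Nnt and 9 antioxidant enzyme genes (Sod1, Sod2, Cat, Gpx1, Prdx1, Txnrd1, Txnrd2, Gsr and Gclc) were followed in LSK cells. This marrow population is sorted for Sca-1 and c-Kit and against lineage markers, and holds the blood stem cells and early progenitors of the mouse. The members were all non-control probes that the scanner files assign to these 10 of 34821 gene names, which gave 15 of the 55681 probes on the array, each kept on its own. Nnt was included because its brightest probe differed between the genotypes in these same arrays, while its other probes did not follow it. The genotype values of the members are therefore given as descriptions, without a test.

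The cells came from NIKaly/aly mice (samples 2, 4 and 6) and from wild-type mice (samples 1, 3 and 5), with 1 Cy3-labelled sample per one-colour Agilent array and all 6 arrays on 1 slide. The aly allele disables NIK, the kinase encoded by Map3k14 that activates the alternative NF-kB pathway, and the study asked what its loss of function changes in these cells. The labels give no age, sex, strain or treatment, and do not say whether samples were single animals or pools. The C57BL/6J strain is known to carry a deletion in Nnt, and without a named strain the Nnt allele of either genotype is not known here. Since separate animals are not stated either, a p-value covers only how far these samples differ, and that may be technical.

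Nnt encodes nicotinamide nucleotide transhydrogenase, an enzyme of the inner mitochondrial membrane that uses the proton gradient to pass reducing power from NADH to NADP+. The NADPH it makes feeds the glutathione and thioredoxin systems of the mitochondrion, which remove hydrogen peroxide. Superoxide is first turned into hydrogen peroxide by the superoxide dismutases. Blood stem cells are known for low levels of reactive oxygen species and for losing function when those levels rise.

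Where a gene has several probes, the probes read different stretches of its transcript, and the Nnt probes did not give the same picture. All are 60 bases long, and their last 30 bases are shown 5′ to 3′ as the files give them, with the polyadenylation signal AATAAA in capitals where a probe holds it. The Nnt probes are shown because they disagree, the Cat probes because 1 of them bridges a gap in the genome, the Gsr probes because they lie almost next to each other, and the Txnrd2 probe because it also holds AATAAA.
Nnt brightest probe (A_55_P2144285): atctgagtAATAAAtgagttcataaaagtg
Nnt RIKEN clone probe (A_55_P2008956): attttcatatttggtgatgatattaaataa
Nnt most 3′ probe (A_55_P2144280): tcctactagcatccaatgataaaagccaag
Cat brighter probe (A_55_P2148873): taccacacacacacacacatgcaatacaca
Cat dimmer probe (A_51_P191611): gtgcggacattctacacaaaggtgttgaat
Gsr brighter probe (A_55_P1966982): cattcagtcatttctgtatctctgcgtttg
Gsr dimmer probe (A_55_P2103055): ggagagatgacagtacatgcaagacggaag
Txnrd2 probe (A_55_P1998912): gcactAATAAAgaggatgttttactaaagc

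The brightest Nnt probe lies on the minus strand at chr13:120124335-120124394 of the mm9 build and is assigned to the transcript NM_008710. The most 3′ probe, at chr13:120123318-120123377, is assigned to the same transcript and lies 957 bases further downstream. The third, at chr13:120142585-120142644, lies 18190 bases upstream of the brightest and is assigned to AK050478, a full-length cDNA clone from pancreatic islet cells. AATAAA starts at base 39 of the brightest probe, counted from its 5′ end, and occurs in neither of the others. It was found in 10.1% of all 60-base probes on the array and in 13.1% of the tested ones. Its reverse complement, TTTATT, was found in 3.74% and 3.99%. No member probe holds TTTATT, and 2 of the 15 (13.3%) hold AATAAA, near the share of the tested probes. Exon and UTR boundaries on mm9 were not used here, so no probe is assigned to an exon or UTR.

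The brightest Nnt probe read higher in NIKaly/aly in every sample. It was well above background on all 6 arrays, at 3.99, 3.51 and 3.59 in NIKaly/aly 2, 4 and 6, against 2.76, 2.63 and 2.65 in wild type 1, 3 and 5. These values, like all levels given here, are log2 processed signal minus the log2 of that array's 75th percentile, taken without control spots. The groups did not overlap, and the NIKaly/aly samples spanned 0.48, against 0.13 among the wild-type samples. The means were 3.69 ± 0.26 in NIKaly/aly and 2.68 ± 0.07 in wild type (SD, n = 3 each), a difference of 1.01 ± 0.26 (SE), or 2.02-fold. Over all 21220 tested probes, 4.57% had non-overlapping groups, 2.56% with NIKaly/aly higher and 2.01% with NIKaly/aly lower. Nnt was chosen from that contrast, so nothing is read from its place among them.

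The difference was similar in each pair of consecutive samples, at 1.22 between samples 2 and 1, 0.88 between samples 4 and 3 and 0.94 between samples 6 and 5. It was 1.05 within the first row of arrays on the slide, which holds samples 1 to 4, and 0.91 without samples 1 and 2. The second row holds samples 5 and 6, 1 of each genotype. In processed signal, before scaling between arrays, the probe read 1990, 2290 and 610.3 in NIKaly/aly 2, 4 and 6, against 319, 1392 and 504 in wild type 1, 3 and 5. The array's 75th percentile was 126, 201 and 50.8 on the NIKaly/aly arrays and 47.0, 225 and 80.2 on the wild-type arrays. The separation of the groups is thus seen after scaling, while the unscaled signals of the groups overlap. Its width depended on the scaling. The lowest NIKaly/aly and highest wild-type values were 3.51 and 2.76 with the 75th percentile. With each array scaled to its median, they were 6.89 and 6.75, so the groups were only just apart.

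The other Nnt probes were dim. The probe of the RIKEN clone read -3.51, -1.25 and -1.21 in NIKaly/aly 2, 4 and 6, against -2.39, -1.49 and -1.48 in wild type 1, 3 and 5. It was well above background on 2 of 3 arrays of each genotype, and samples 1 and 2 were the ones below. On samples 3 to 6, where it was measured, NIKaly/aly read higher by 0.24 and 0.27 in the pairs. The mean difference over all arrays was -0.21 ± 0.70 (SE). It was 0.26 without samples 1 and 2, 0.55 without NIKaly/aly 2 and -0.50 without wild type 1, so its direction rested on an array where the probe was near background.

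The most 3′ Nnt probe was well above background on 1 of 3 arrays of each genotype, NIKaly/aly 2 and wild type 3, and was not tested. It read -2.03, -5.50 and -3.68 in NIKaly/aly 2, 4 and 6, against -3.74, -1.76 and -3.05 in wild type 1, 3 and 5. The pairs differed by 1.71, -3.73 and -0.63, with no common direction. On each array, the brightest probe stood above the most 3′ probe by 6.02, 9.0 and 7.26 in NIKaly/aly and by 6.50, 4.39 and 5.70 in wild type. Levels of different probes cannot be compared as amounts of RNA, and near background these gaps are mostly set by the dim probe.

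**Figure D1:**
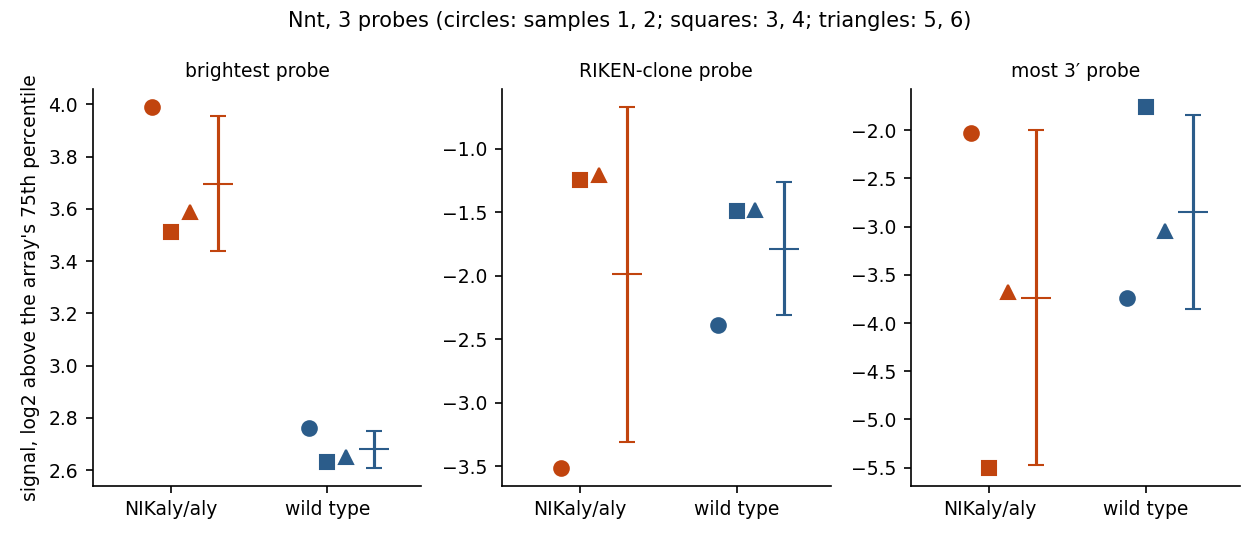
Log2 signal of the 3 Nnt probes relative to the 75th percentile of each array (y axis, a different range in each panel), with 1 point per array, NIKaly/aly left and wild type right, and the mean ± SD (n = 3) beside the points. The NIKaly/aly points of the brightest probe sit between 3.51 and 3.99, above the wild-type points at 2.63 to 2.76, while the groups overlap in the other panels.

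None of the 12 probes of the 9 antioxidant enzymes separated the genotypes: the groups overlapped for every one. Over all tested probes only 4.57% had groups that did not overlap, so none among 12 is near that share. Their differences ran from -0.30 to 0.29 and had a median of 0.12, with 7 higher and 5 lower, beside a median of -0.01 over all tested probes. All 12 were well above background on all 6 arrays. In limma no probe of the whole table passed a Benjamini-Hochberg adjusted p of 0.05 (0% called), members included, and 271 probes (1.28%) had an unadjusted p under 0.05. With consecutive samples as a block, 2 probes passed (0.00943%), and no member was among them.

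Of the superoxide dismutases, Sod1 encodes the copper-zinc enzyme of the cytosol and Sod2 the manganese enzyme of mitochondria. Sod1 read 8.19, 7.29 and 7.04 in NIKaly/aly 2, 4 and 6, against 8.02, 7.12 and 7.04 in wild type 1, 3 and 5, a difference of 0.11 ± 0.46 (SE). Sod2 read 5.83, 4.85 and 4.65 in NIKaly/aly, against 5.31, 4.77 and 4.65 in wild type, a difference of 0.20 ± 0.39. In both genes the lowest-numbered sample of each genotype was the highest and the highest-numbered the lowest, and the samples numbered 5 and 6 were the closest, 0.00 apart for Sod1 and 0.01 apart for Sod2, with NIKaly/aly 6 the lower.

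Catalase and glutathione peroxidase 1 both remove hydrogen peroxide, catalase mainly in peroxisomes and Gpx1 in the cytosol and mitochondria with glutathione as donor. The brighter Cat probe, at chr2:103294487-103294546, read 0.60, 0.38 and 0.92 in NIKaly/aly 2, 4 and 6, against 0.58, 0.38 and 0.53 in wild type 1, 3 and 5 (difference 0.13 ± 0.28, SE). The dimmer Cat probe, whose 60 bases span 3343 bases of the genome and so bridge a gap in it, read -1.02, -1.26 and -0.67 in NIKaly/aly, against -0.35, -1.03 and -1.48 in wild type (difference -0.03 ± 0.41). Its pairs pointed both ways, at -0.67, -0.23 and 0.81. Sample NIKaly/aly 6 was the highest NIKaly/aly sample on both Cat probes.

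Gpx1 was the member with the lowest difference. It read 9.11, 8.12 and 8.35 in NIKaly/aly 2, 4 and 6, against 9.68, 8.31 and 8.49 in wild type 1, 3 and 5. The difference was -0.30 ± 0.51 (SE), and NIKaly/aly was lower in all 3 pairs, by -0.57, -0.20 and -0.13. Leaving out 1 array gave -0.59 (without NIKaly/aly 2) to 0.13 (without wild type 1), and leaving out samples 1 and 2 together gave -0.17. Its size thus depended on single samples. Of 19 alternatives, only 1 had the other sign, the fit without wild type 1, which kept NIKaly/aly 2.

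Prdx1 encodes a cytosolic peroxiredoxin, which reduces peroxides with electrons from thioredoxin. Its brighter probe read 5.56, 4.22 and 3.64 in NIKaly/aly 2, 4 and 6, against 5.01, 4.13 and 3.89 in wild type 1, 3 and 5 (difference 0.13 ± 0.53, SE). The dimmer probe, 544 bases downstream, read 1.36, 0.14 and 0.01 in NIKaly/aly, against 0.54, 0.28 and 0.07 in wild type (0.21 ± 0.41). Sample NIKaly/aly 2 was the highest on both probes, and the brighter one differed by -0.08 without samples 1 and 2 and by -0.41 without NIKaly/aly 2.

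The thioredoxin reductases recharge thioredoxin with NADPH, Txnrd1 in the cytosol and Txnrd2 in mitochondria. Txnrd1 had the highest signed difference of the antioxidant enzymes, close in size to the negative one of Gpx1. It read 4.90, 4.56 and 4.89 in NIKaly/aly 2, 4 and 6, against 4.38, 4.42 and 4.67 in wild type 1, 3 and 5, with 4.79 ± 0.19 and 4.49 ± 0.16 as means (SD, n = 3 each). NIKaly/aly was higher in all 3 pairs, by 0.52, 0.14 and 0.22, but NIKaly/aly 4 lay below wild type 5, and the difference of 0.29 ± 0.27 (SE) was 1.23-fold. Txnrd2 read 4.23, 3.61 and 3.29 in NIKaly/aly, against 4.29, 3.71 and 3.31 in wild type (-0.06 ± 0.37), with each NIKaly/aly sample within 0.10 of its consecutive wild-type sample.

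Glutathione reductase, encoded by Gsr, recharges glutathione with NADPH, and Gclc encodes the catalytic subunit of the enzyme that limits glutathione synthesis. The brighter Gsr probe read 5.18, 3.94 and 5.06 in NIKaly/aly 2, 4 and 6, against 5.33, 3.82 and 4.54 in wild type 1, 3 and 5 (difference 0.16 ± 0.48, SE). The dimmer Gsr probe, 15 bases upstream, read 3.03, 1.68 and 2.88 in NIKaly/aly, against 3.41, 1.87 and 2.50 in wild type (-0.07 ± 0.50). The probes followed each other over the arrays (Pearson's r = 0.979 over 6 arrays, which share their scaling), so their opposite signs lie within the same spread. Gclc varied least of the enzymes, at 2.47, 2.36 and 2.66 in NIKaly/aly, against 2.56, 2.58 and 2.65 in wild type (-0.10 ± 0.24).

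**Figure D2:**
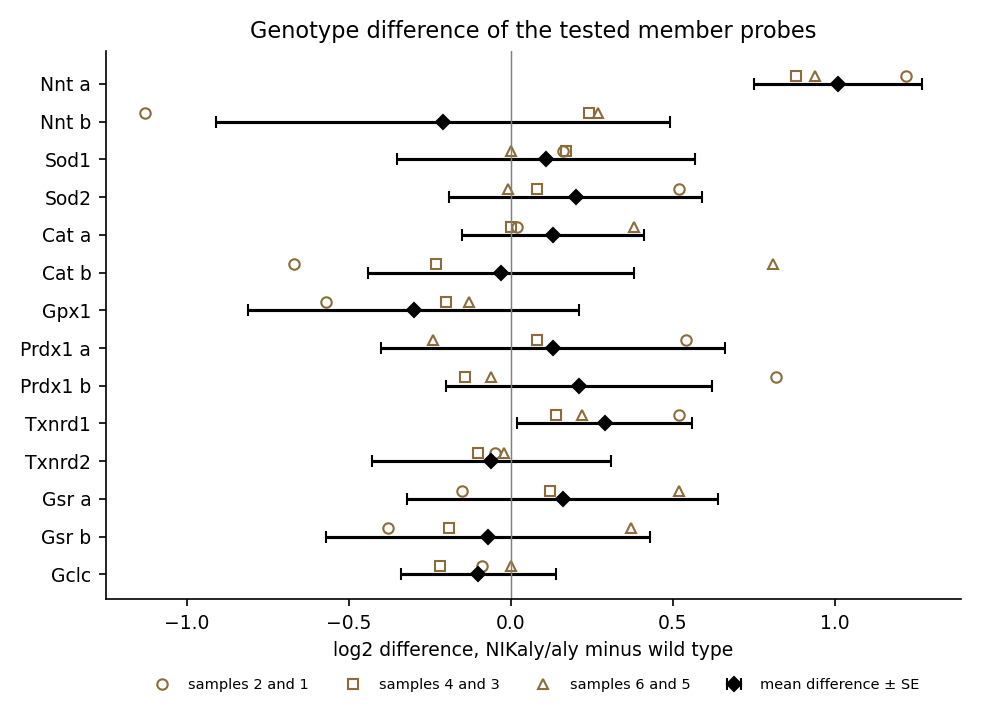
Log2 difference, NIKaly/aly minus wild type (x axis), of the 14 tested member probes, as the mean over samples ± SE (diamonds) and within each pair of consecutive samples (open symbols); a and b mark the brighter and the dimmer probe of a gene. The brightest Nnt probe lies at 1.01 with all pairs between 0.88 and 1.22, and the enzymes lie between -0.30 and 0.29.

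Across the arrays, most members varied with the pair of consecutive sample numbers and little with genotype, and the brightest Nnt probe did the reverse. Genotype held 91.5% of its sum of squares over the 6 arrays and the pair 6.4%. Nnt was included for its genotype difference in these same arrays, so this high share follows from the choice and is a description only. For Sod1 the pair held 97.9% and genotype 1.4%, and for Txnrd2 99.3% and 0.5%. Of the 14 tested member probes, 12 had a larger share for the pair than for genotype. The other member besides Nnt was Txnrd1, with 50.8% for genotype and 33.1% for the pair. The pair has more levels than genotype, so its share tends to be larger even in values without structure. The same count over all tested probes was not made. Over all tested probes the median share was 78.6% for the pair and 4.17% for genotype, so the enzymes resembled the array as a whole. The labels do not pair the samples, and this likeness of consecutive numbers was known from the arrays before the shares were computed.

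Of the 14 member probes, 3 read higher in NIKaly/aly in all 3 pairs (Nnt, Sod1 and Txnrd1) and 2 read lower in all of them (Gpx1 and Txnrd2), Sod1 by 0.00 after rounding in the pair of samples 6 and 5. Over all tested probes 13.7% were higher and 15.7% lower in all 3 pairs. The count without Nnt is near that background.

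**Figure D3:**
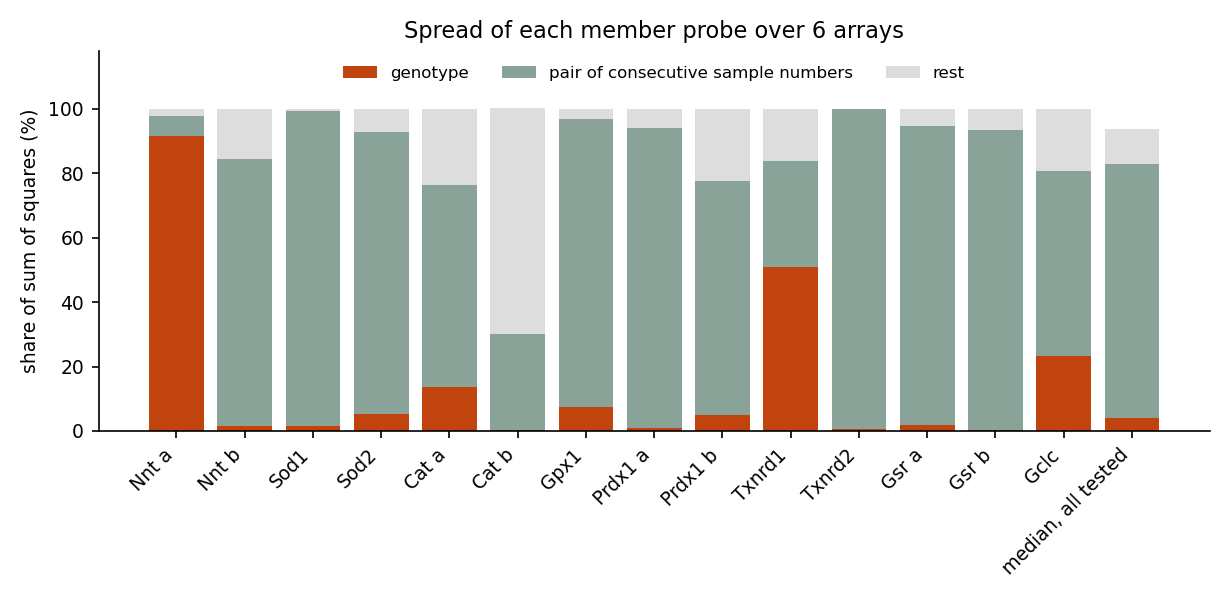
Share of each tested member probe's sum of squares over 6 arrays (y axis, percent) held by genotype, by the pair of consecutive sample numbers and by the rest, with the median of each share over all tested probes in the last bar, whose parts need not add to 100. The bar of the brightest Nnt probe is 91.5% genotype, and those of Sod1 and Txnrd2 are 97.9% and 99.3% pair.

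Sod1, Sod2, Gpx1, Txnrd2 and both probes of Prdx1 and Gsr were highest on NIKaly/aly 2 and wild type 1, which is 8 of the 14 tested probes. Over all tested probes 37.3% had these samples on top. The order depends on the scaling: with 4 other scalings it held for 3 to 5 of the 14, beside 18.5% to 26.2% of all probes. Both tested probes of Nnt, both of Cat, Txnrd1 and Gclc did not show it with the 75th percentile.

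Markers of other blood cells moved with the same samples. Of 13 erythroid markers 9 were tested. The log2 of their summed signal was 10.01, 5.78 and 7.63 in NIKaly/aly 2, 4 and 6, against 11.37, 6.02 and 6.96 in wild type 1, 3 and 5. All 10 neutrophil markers were tested, and their sum was 12.29, 10.61 and 12.07 in NIKaly/aly, against 13.10, 10.65 and 11.95 in wild type. B cell markers (8 of 10 tested, not Pax5 or Blk) had sums of 4.21 to 6.36 in NIKaly/aly and 5.12 to 7.39 in wild type. Macrophage and dendritic cell markers (8 of 10 tested, not C1qa or Mrc1) had sums of 5.31 to 6.91 in NIKaly/aly and 5.62 to 7.46 in wild type. The LSK markers, of which 9 of 10 were tested and Slamf1 was not, had sums of 8.50 to 8.54 in NIKaly/aly and 8.22 to 8.32 in wild type. The brightest of them was Cd34, at 7.31 to 7.76 in NIKaly/aly and 6.93 to 7.53 in wild type. Their medians overlapped, at 4.21, 4.97 and 5.43 in NIKaly/aly 2, 4 and 6, against 4.21, 4.62 and 4.51 in wild type 1, 3 and 5. The cell surface markers of the gate itself were present on every array, Kit at 4.66 to 5.45 in NIKaly/aly and 4.65 to 5.20 in wild type, and Ly6a at 1.5 to 2.94 in NIKaly/aly and 2.45 to 3.67 in wild type. The part of other cells in the enzyme levels was not tested, and in such bulk samples fewer cells of a type and less RNA per cell cannot be told apart.

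Some markers moved with genotype, as the brightest Nnt probe did. Of the 8 tested macrophage and dendritic cell markers, 6 read lower in NIKaly/aly, and for 3 of them the groups did not overlap, beside 2.01% of all probes that were lower without overlap. Csf1r, the receptor for the macrophage growth factor, read 3.82, 3.77 and 3.26 in NIKaly/aly 2, 4 and 6, against 5.29, 4.51 and 4.55 in wild type 1, 3 and 5 (difference -1.17 ± 0.33, SE). Itgax differed by -1.01 ± 0.37 and the chemokine receptor gene Cx3cr1 by -1.08 ± 0.40, each lower in all 3 pairs. Both passed the background call on only 2 of 3 NIKaly/aly arrays and on all 3 wild-type arrays. The other tested Cx3cr1 probes differed by -1.01 and -0.56. Csf1r was separate under the 4 other scalings too, while Itgax and Cx3cr1 overlapped with median scaling. Of the 9 tested LSK markers, 6 read higher in NIKaly/aly and 3 lower. Procr, found on blood stem cells, read higher without overlap (0.78 ± 0.28), also under all 4. Ly6a, a marker of the gate, went the other way (-0.68 ± 0.46) and was lower in all 3 pairs, with overlapping groups. With the 75th percentile taken over probes well above background on all arrays, Ly6a was separate and lower, and Cd34 separate and higher. All 10 neutrophil and all 8 B cell markers had lower means in NIKaly/aly, with overlapping groups, as 10923 of all 21220 tested probes had lower means. The exceptions were 1 neutrophil marker that read higher with normexp, and Mpo, which was separate under 3 other scalings. For the neutrophil markers the median share of the sum of squares was 0.75% for genotype and 97.6% for the pair of consecutive samples. For the B cell markers it was 8.71% and 82.3%. Markers of 1 list can vary together, so their signs are not separate observations. Of the erythroid markers 7 of 9 read lower, while Car2 read higher and was separate with quantile normalization and with normexp. None of these markers passed in limma over all probes, and their part in the Nnt difference was not tested.

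**Figure D4:**
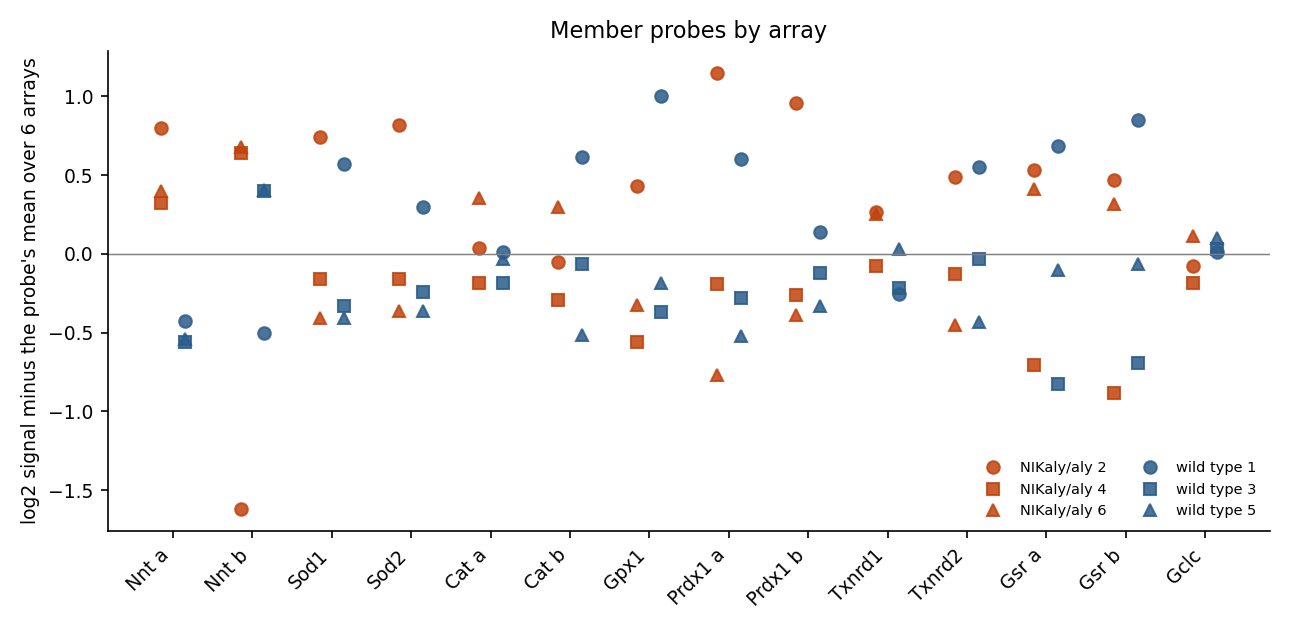
Log2 signal of each tested member probe minus its own mean over the 6 arrays (y axis), with NIKaly/aly points left of wild-type points and 1 symbol per pair of consecutive samples; a and b mark the brighter and the dimmer probe of a gene. Samples 1 and 2 (circles) lie on top for 8 of the 14 probes, and the colours separate for the brightest Nnt probe only.

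Other redox genes were read from 5 lists, with 71 of their 85 genes tested by their brightest probe. None was called (0% of all probes were), 35 read higher and 36 lower in NIKaly/aly, and the median difference was -0.02, beside -0.01 over all tested probes. At an unadjusted p under 0.05 there were 2 of 71, Me1 and Txnip, and these were also the only ones whose groups did not overlap, where 4.57% of all probes did not.

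Of the 16 tested genes that supply NADPH, 7 read higher and 9 lower (median -0.04). Me1, the cytosolic malic enzyme that makes NADPH from malate, read 0.92, -0.40 and -1.72 in NIKaly/aly 2, 4 and 6, against -2.42, -2.35 and -4.29 in wild type 1, 3 and 5. Every NIKaly/aly sample was above every wild-type sample, but only 2 of 3 NIKaly/aly arrays and 1 of 3 wild-type arrays read the probe well above background. The difference was 2.62 ± 0.79 (SE; limma, Benjamini-Hochberg adjusted p = 1), and 1.05 with normexp background correction, whose offset draws dim signals together. The next highest was Mthfd1l (0.28 ± 0.33), a mitochondrial enzyme of folate metabolism, and the lowest were Mthfd2 (-0.35 ± 0.51), another of these, and Pgd (-0.25 ± 0.57) of the pentose phosphate pathway. Idh2, the mitochondrial NADP-dependent isocitrate dehydrogenase, differed by 0.02 ± 0.46 and G6pdx, which starts the pentose phosphate pathway, by -0.20 ± 0.57.

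Of 8 tested genes for superoxide handling and the NADPH oxidase, which makes superoxide in phagocytes, 4 read higher and 4 lower (median 0.01). The oxidase subunit genes Ncf4 (0.55 ± 0.56), Ncf1 (-0.37 ± 0.47) and Cyba (-0.34 ± 0.64) differed in sign, and their values changed when 1 array was left out. With NIKaly/aly 2 left out Ncf4 came to 0.08, and with NIKaly/aly 4 left out Ncf1 came to 0.03 and Cyba to 0.06. Leaving out wild type 1 gave 1.05 for Ncf4, 0.01 for Ncf1 and 0.31 for Cyba. Without both samples 1 and 2, the values were 0.58 for Ncf4, -0.34 for Ncf1 and -0.13 for Cyba. Within the pairs Ncf4 differed by 0.49, 0.55 and 0.61, Ncf1 by -0.41, -0.68 and -0.01, and Cyba by -0.77, -0.32 and 0.07. Nox1 differed by 0.24 ± 0.83 and passed the background call on 2 of 3 NIKaly/aly and 1 of 3 wild-type arrays. Of 18 tested glutathione genes, 8 read higher and 10 lower (median -0.06), from Gsta4 (0.62 ± 0.40) and Gstm5 (0.32 ± 0.56), both glutathione transferases, to Gstp1 (-0.32 ± 0.48), a further transferase, and Gclm (-0.27 ± 0.48), which encodes the partner subunit of Gclc.

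Of 17 thioredoxin and peroxiredoxin genes, 9 read higher and 8 lower (median 0.06). Txnip, which encodes a protein that binds and inhibits thioredoxin, read 2.61, 2.96 and 2.39 in NIKaly/aly 2, 4 and 6, against 3.48, 3.08 and 3.64 in wild type 1, 3 and 5. The groups did not overlap, but NIKaly/aly 4 lay 0.12 below wild type 3 and the difference was -0.75 ± 0.29 (SE; limma, adjusted p = 1). It was -0.41 with array quality weights. The second Txnip probe differed by -0.53. Prdx4, a peroxiredoxin of the secretory pathway, had the lowest difference (-0.85 ± 0.67), which rested on the first samples: its pairs differed by -3.19, 0.50 and 0.14, and the value was 0.32 without samples 1 and 2, -0.20 without NIKaly/aly 2 and -0.33 without wild type 1. Txnrd3 (0.43 ± 0.32) and Srxn1 (0.40 ± 0.30), which encodes the enzyme that repairs overoxidized peroxiredoxins, were the highest.

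Of 14 tested genes of the Nrf2 response, 8 read higher and 6 lower (median 0.02). Nfe2l2 itself, which encodes the transcription factor Nrf2, differed by 0.02 ± 0.26, and Keap1, which holds Nrf2 in check, by -0.36 ± 0.35. Maff (0.67 ± 0.54), a small Maf protein, and the quinone reductase gene Nqo1 (0.57 ± 0.59) were the highest. Maff was 0.08 without wild type 3, and Nqo1 passed the background call on 2 of 3 NIKaly/aly and 1 of 3 wild-type arrays.

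**Figure D5:**
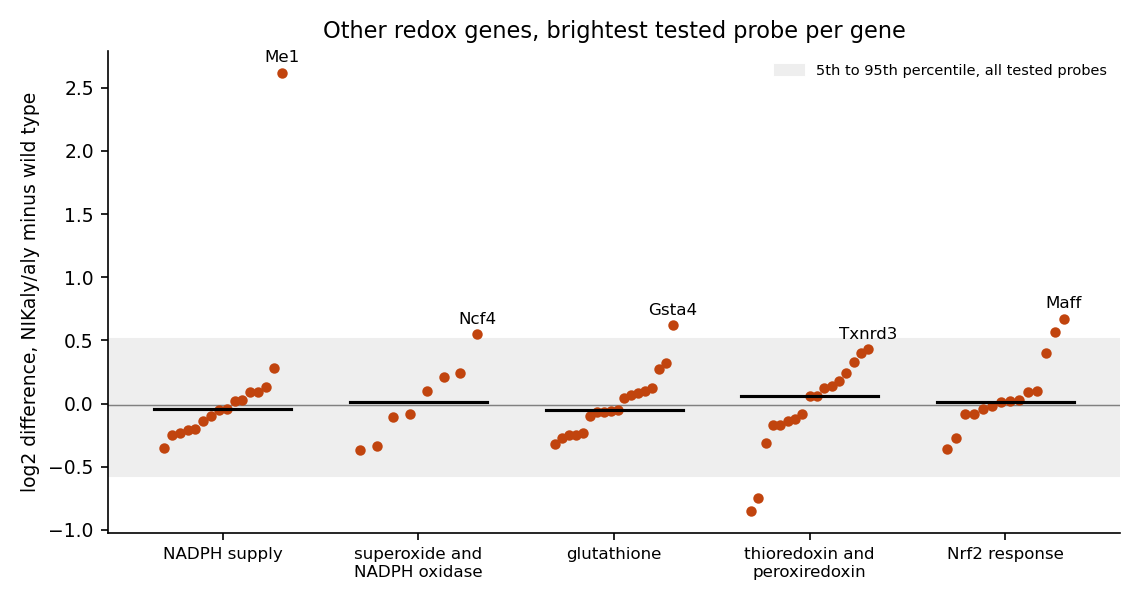
Log2 difference, NIKaly/aly minus wild type (y axis), of the brightest tested probe of each gene in 5 redox lists, with the list median as a bar, the highest gene named, and the 5th to 95th percentile of all tested probes shaded. The list medians lie between -0.06 and 0.06, and Me1 at 2.62 lies far outside the shaded range of -0.57 to 0.51.

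The named genes whose brightest probe followed the brightest Nnt probe most closely over the 6 arrays were Cd69 (Pearson's r = 0.994), Mtus2 (0.990), Atp2c1 (0.987), Qsox1 (0.985) and Ube2e2 (0.983), from 10891 genes compared. The arrays share their scaling, and with 6 points among so many genes values this high are given as a description. Cd69, a lymphocyte activation marker, read 5.28, 4.87 and 5.03 in NIKaly/aly 2, 4 and 6, against 4.34, 4.11 and 4.24 in wild type 1, 3 and 5. These genes lie on chromosomes 6, 5, 9, 1 and 14, none of them on that of Nnt. Among the members, the r with Nnt was highest for Txnrd1 (0.764) and lowest for Gclc (-0.475).

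Probes near Nnt on chromosome 13 did not share its difference. Within 2 Mb of the brightest probe, 5 tested probes of other genes differed by -0.23 to 0.24 (median -0.08), and the groups overlapped for all of them. The nearest was Paip1, 115.2 kb away, at -0.23 ± 0.35 (SE). Within 5 Mb, 14 probes differed by -0.41 to 0.36, again all with overlapping groups. Over all tested probes only 4.57% had groups that did not overlap, so none among 5 or 14 is near that share. Whether the difference is local to Nnt was not tested.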

How the data were processed

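Total RNA of 6 LSK samples was hybridised to one-colour Agilent arrays. Per the file headers, the authors extracted spot intensity with Agilent Feature Extraction 10.7.3.1, and the deposited processed signal is background-subtracted, with surrogates for low values; probe positions are on mm9. The authors' deposited series table holds that intensity divided by the array's median. Here the signal was divided by its 75th percentile on the array, over 59305 spots that are not controls, and log2 was taken. Outlier-flagged and control spots were left out, and spots of 1 probe were averaged. Tested were 21220 probes well above background on at least 3 of 6 arrays; 22 more lacked a value. Between 33.1% and 45.6% of spots per array were well above background, and no spot was saturated; the number of arrays limits the precision. Genotypes were compared with limma 3.58.1 (R 4.3.3; lmFit and eBayes with intensity trend, 4 residual degrees of freedom, two-sided, Benjamini-Hochberg over all tested probes), tested on simulated data. SEs are limma's.

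The members and lists were chosen with earlier results of these data known. Named are all members, the 2 highest and 2 lowest genes of each list, and the 5 genes most like Nnt. Idh2, G6pdx, Nfe2l2, Kit, Ly6a, Cd34, Csf1r, Itgax, Cx3cr1, Procr, Mpo, Car2 and Paip1 were added after their values were seen. Pair differences, neighbours, marker directions and the order of arrays under other scalings were also added then.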

Additional observations from a re-analysis of the deposited data

How the results depend on the processing

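The brightest Nnt probe differed by 0.86 to 1.11 over 19 alternatives, among them 5 other scalings or backgrounds, slide row as a block and each array left out (0.86 to 1.10), always within 1 SD between samples of the value in the report. The 13 other tested member probes moved by less than that spread in all 246 values, of which 38 had the other sign. The 6 list medians, counting all lists together, did so in 120, of which 37 had the other sign. Of 357 values for 19 named list genes, 5 moved further and 18 had the other sign. No probe was called in the report's comparison. There were 5 calls with median scaling and with the authors' table, which repeats it, 12 with no filter on dim probes, 2 with consecutive samples as a block, and 0 to 1 leaving out 1 array, the 1 without wild type 3. Probes at an unadjusted p under 0.05 numbered 271 in the report, and 153 with median scaling and the authors' table, 158 among probes well above background on all arrays, 472 with no filter, 117 in slide row 1, 1495 with the pair block, 427 without samples 1 and 2, and 833 with array weights. The causes were not tested. The labels give the genotypes no replicate number in common and so pair no samples; the pair block, a fit with 2 residual degrees of freedom, rests on likeness of the arrays. Signal near background limits the 2 dimmer Nnt probes and Me1.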
